A study of Homo sapiens with 6 samples.

Results

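LRPPRC and 9 other nuclear genes that make, tail, stabilise or degrade mitochondrial RNA were followed in SW839 cells, an established human renal cell carcinoma (RCC) line, after knockdown of the E3 ubiquitin ligase RNF25. The genes were taken by symbol from the deposited table, and all 10 of 10 were found among its 30267 genes: LRPPRC, SLIRP, MTPAP, PNPT1, TFAM, POLRMT, TFB2M, TEFM, SUPV3L1 and FASTKD2. The rule itself is a list of symbols and uses no measured value. Each of the 10 passed the filter on low values and was tested among 16554 genes.

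The study asked what RNF25 does in RCC cells and measured total RNA, depleted of ribosomal RNA, in 3 libraries with an RNF25 hairpin (genotype shRNF25) and 3 libraries with the control vector pLKO (shControl). According to the study's methods the constructs were carried by lentivirus and infected cells were selected with puromycin, so that both groups carry a vector and both went through selection. The library names give 1 hairpin (shRNF25B), and a second hairpin or a rescue was not analysed here. The treatment notes name the shRNF25 plasmid for controls as well, so the groups rest on titles, genotypes and library names. The design text calls the samples biological triplicates but does not say whether they came from separate infections, and p-values measure only the spread between these samples. The labels give no batch, although the names of the 3 control libraries, unlike those of the knockdown libraries, differ in form from each other. If a batch coincided with the groups, its effect and that of the knockdown cannot be told apart.

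Mitochondria keep a small circular genome that is transcribed from both strands into long precursors, which are cut into mRNAs, tRNAs and rRNAs. POLRMT is the RNA polymerase of this genome, TFAM and TFB2M help it start, and TEFM helps it elongate. The LRPPRC-SLIRP complex binds mature mitochondrial mRNAs, protects them from decay and favours their polyadenylation by MTPAP, while PNPT1 (polynucleotide phosphorylase) and the helicase SUPV3L1 form the main degradation complex. FASTKD2 sits in mitochondrial RNA granules, where it is needed for the large ribosomal RNA.

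The libraries held between 18647460 and 19943154 reads on genes, and a member gene had between 84 reads (TEFM) and 4047 reads (LRPPRC) in a library. All values below are normalized counts, which are reads divided by a scaling factor of between 0.905 and 1.10 for each library. RNF25 itself, the target of the hairpin, had a normalized count of 588 ± 92.0 (mean ± SD, n = 3) in shControl and 242 ± 25.7 (n = 3) with the hairpin, without overlap of the groups (log2 fold change -1.27, limma adjusted p = 0.000585). shControl replicate 1 stood apart, since 10.6% of its reads lay on the 13 mitochondrially encoded mRNAs, 3.20 times the mean of the other controls. Replicates were closer to each other in shRNF25 than in shControl, with a median SD of a gene of 0.10 against 0.26 on the log2 scale. Of 8 markers of the line's own type, 7 were in the table, with the keratin KRT18 at normalized counts between 15768 and 18790.1, PAX8 between 76.7 and 140 and the hypoxia-driven carcinoma marker CA9 between 1.85 and 50.7. Markers of other cell types were also summed. The 5 of 6 leukocyte symbols found were low, with a summed level of 34.5 to 43.1 in shControl and 50.5 to 72.9 in shRNF25. CD3E lay at 0 to 1.08, while ITGAM ran from 18.3 to 24.3 in shControl and 29.6 to 50.1 in shRNF25. The 4 of 4 endothelial symbols summed to 489 to 695 in shControl and 494 to 645 in shRNF25, but single genes moved. CDH5 ran from 73.0 to 199 in shControl and 3.64 to 8.31 in shRNF25, and KDR from 17.3 to 29.8 and 81.3 to 88.4. The 4 of 4 fibroblast symbols summed to 1098 to 1289 and 865 to 1014. DCN lay at 0 to 1.03, while COL1A1 made up most of this sum (1090 to 1258 and 848 to 992). Of the marker genes, KRT19, CDH5 and COL1A1 were lower and VIM, ITGAM and KDR higher at an adjusted p below 0.05 (limma), and their part in the results was not tested.

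Of the 10 genes, 1 was lower in shRNF25 at an adjusted p below 0.05 (limma on log2(normalized count + 1), Benjamini-Hochberg over all 16554 genes) and 0 were higher. The gene was SLIRP. Across all tested genes the same rule called 10.8% lower and 10.5% higher, and 21.3% in either direction, so that the share among the 10 genes, 10%, was near the share of lower calls in general. At an unadjusted p below 0.05, 2 genes were lower (SLIRP and PNPT1) and 0 were higher (limma). The share of all genes at that unadjusted p was not set beside this count, so it shows no tendency of the 10 genes. With edgeR and DESeq2 on the recovered reads, 0 were higher at an adjusted p below 0.05. The study's own criteria, which join that threshold to a 1.5-fold minimum change, were met by 1 gene, again SLIRP, against 15.7% of all tested genes in either direction (7.1% lower and 8.65% higher). The median log2 fold change of the 10 genes was -0.08, beside -0.01 over all tested genes, with 5 estimates above 0 and 5 below.

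**Figure D1:**
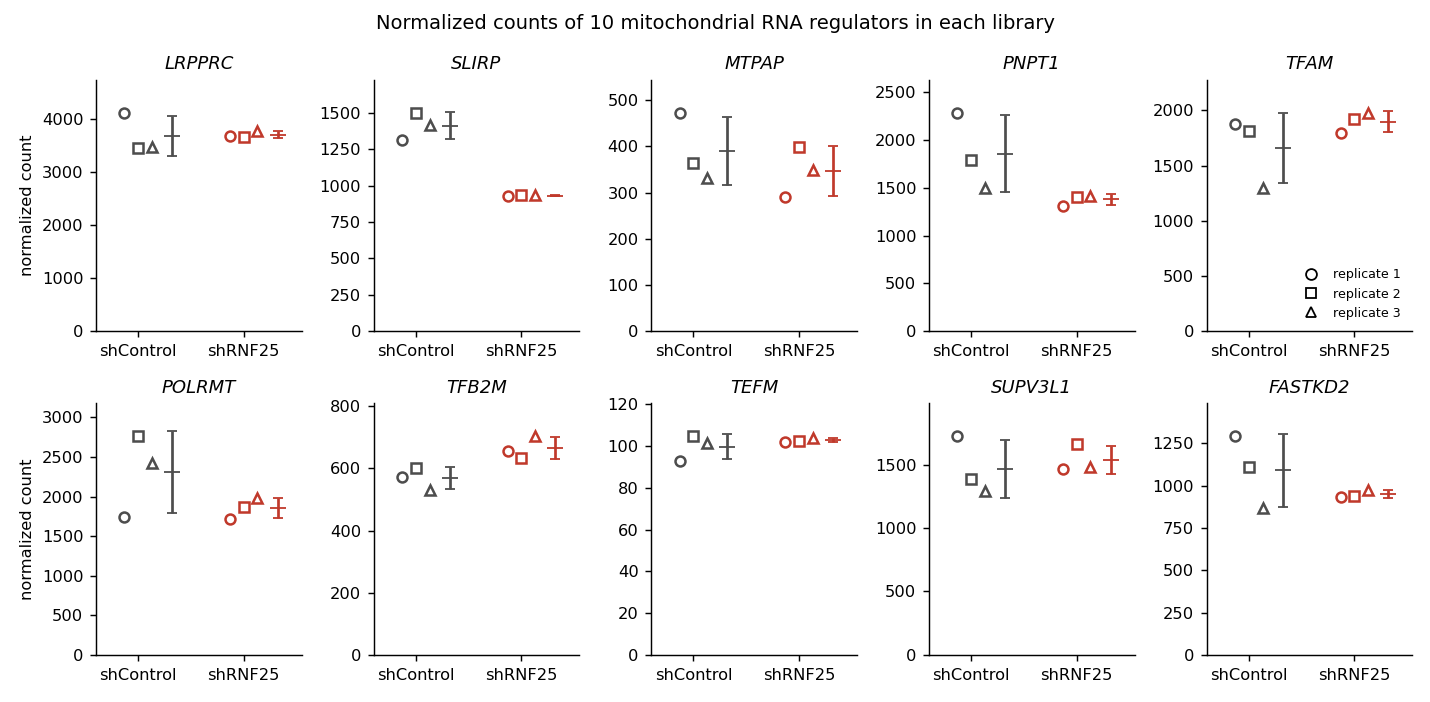
Normalized counts (vertical axes, linear, from 0) of the 10 genes in each library, with shControl in grey and shRNF25 in red. Symbols give the replicate number, and the bars give mean ± SD (n = 3). The shRNF25 values of SLIRP and PNPT1 lie below every control and those of TFB2M above every control, and the 7 other genes overlap.

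In 3 of the 10 genes the values of the groups did not overlap: SLIRP and PNPT1 were lower in every shRNF25 library and TFB2M was higher. This was the case for 42.5% of all tested genes, 21.8% with lower and 20.7% with higher values in shRNF25. With 3 libraries against 3, complete separation gives a two-sided exact permutation p of 0.1, the smallest this design allows. The plot of normalized counts by library shows these values together with the wider scatter of the controls. The coefficient of variation was larger in shControl than in shRNF25 for 10 of 10 genes, at 6.12% to 22.5% against 0.453% to 15.6%. For TFB2M the SDs themselves were alike, at 35.4 in shControl and 35.7 in shRNF25. The controls were also more widely spread over all tested genes, with a median SD of 0.26 against 0.10 on the log2 scale.

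LRPPRC, a pentatricopeptide repeat RNA-binding protein, lies on chromosome 2 of GRCh38 (chr2:43886508-43996005, minus strand, 40 merged exons in the GENCODE 29 annotation). Its normalized counts were 4126, 3464 and 3475 in shControl replicates 1 to 3 and 3688, 3657 and 3786 in shRNF25 replicates 1 to 3. All shRNF25 values fell between the highest and the lowest control. The means were 3688 ± 379 and 3710 ± 67.4 (SD, n = 3), with a log2 fold change of 0.01 (SE 0.107, limma adjusted p = 0.944). The 95% interval of the fold change, 0.854 to 1.19, excluded a 1.5-fold change either way. The estimate was slightly negative without shControl replicate 2, shControl replicate 3 or shRNF25 replicate 3, and its adjusted p lay between 0.295 and 0.997 in all 16 alternatives.

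SLIRP, the small RNA-binding partner of LRPPRC, lies on chromosome 14 (chr14:77708071-77761104, plus strand). It had 1315, 1503 and 1419 normalized counts in shControl and 927, 935 and 933 in shRNF25. The lowest control was well above the highest knockdown library. The mean fell from 1413 ± 94.0 to 931 ± 4.22 (SD, n = 3), to 65.9% of the control, with a log2 fold change of -0.60 (SE 0.102, 95% interval -0.83 to -0.37, limma adjusted p = 0.00384). In bulk RNA, fewer expressing cells and less RNA per cell cannot be told apart. The estimate stayed between -0.65 and -0.51, with an adjusted p of at most 0.0312, in all 16 alternatives. The 1.51-fold size lay at the border of the study's 1.5-fold criterion, which SLIRP no longer met under quantile normalization, rescaling on well-expressed genes, edgeR or without shControl replicate 2.

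The ratio of SLIRP to LRPPRC within a library does not depend on the scaling between libraries. It was 0.319, 0.434 and 0.408 in shControl and 0.251, 0.256 and 0.246 in shRNF25. Each knockdown library held less SLIRP per LRPPRC than each control, although shControl replicate 1 lay nearer to them than the other controls did. The difference in the mean log2 ratio was -0.61, from -1.38 ± 0.24 to -1.99 ± 0.03 (SD, n = 3), with a two-sided exact permutation p of 0.1. Leaving out each library in turn gave -0.74 to -0.52.

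**Figure D2:**
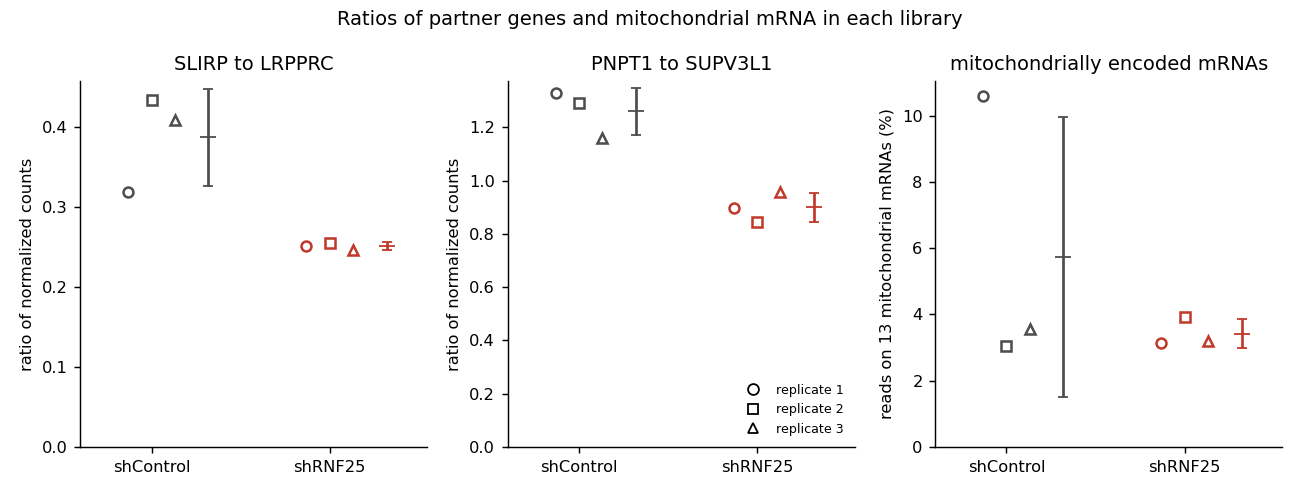
Ratio of SLIRP to LRPPRC and of PNPT1 to SUPV3L1 (normalized counts, no unit) and percentage of reads on the 13 mitochondrially encoded mRNAs, in each library, with mean ± SD (n = 3). Both ratios are lower in every shRNF25 library than in every control, at 0.246 to 0.256 against 0.319 to 0.434 for SLIRP to LRPPRC, while the mitochondrial share differs mainly through shControl replicate 1 at 10.6%.

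MTPAP, the mitochondrial poly(A) polymerase, lies on chromosome 10 (chr10:30309801-30374448, minus strand). Its normalized counts were 473, 364 and 332 in shControl and 291, 399 and 349.8 in shRNF25, with a log2 fold change of -0.17 (SE 0.173, 95% interval -0.55 to 0.22, limma adjusted p = 0.530). The estimate rested on single libraries, at -0.02 without shControl replicate 1, -0.05 without shRNF25 replicate 1 and -0.27 without shControl replicate 3 or shRNF25 replicate 2. The groups overlapped, and MTPAP was the only one of the 10 genes whose shRNF25 libraries varied by more than 10% (coefficient of variation 15.6%). Exons of the pseudogene GOLGA2P6 on the same strand share 19.4% of its exon bases, and those of an antisense transcript, AL353796.2, share 13.4%. Its reads may therefore be divided with these genes, depending on how reads were counted.

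PNPT1 and SUPV3L1 are the exoribonuclease and the helicase of the degradation complex. PNPT1 (chr2:55634265-55693910, minus strand) had 2288, 1790.4 and 1498 normalized counts in shControl and 1314, 1409 and 1418 in shRNF25. Its controls were widely spread, and the lowest was only just above the highest knockdown library. The means were 1859 ± 399.5 and 1381 ± 57.8 (SD, n = 3), with a log2 fold change of -0.41 (SE 0.151, 95% interval -0.75 to -0.07) and an adjusted p of 0.0862 (limma), above the threshold. Without shControl replicate 1, the high control, the log2 fold change was -0.25 (limma adjusted p = 0.0623), and without shControl replicate 3 it was -0.55 (adjusted p = 0.0200). With library weights by group the adjusted p was 0.0433, and it stayed above 0.05 in the other 14 of 16 alternatives.

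SUPV3L1 (chr10:69180232-69209099, plus strand) had 1723, 1384 and 1292 normalized counts in shControl and 1464, 1665 and 1482 in shRNF25. The groups overlapped, with a log2 fold change of 0.08 (SE 0.131, 95% interval -0.22 to 0.37, limma adjusted p = 0.715) that turned to -0.01 without shControl replicate 3. The ratio of PNPT1 to SUPV3L1, which was looked at after their values had been seen, was 1.33, 1.29 and 1.16 in shControl and 0.897, 0.846 and 0.957 in shRNF25. The ratio was lower in every knockdown library than in every control, with a difference in the mean log2 ratio of -0.48 (two-sided exact permutation p = 0.1). These counts are not per length, so the ratio compares the groups and not the abundance of the 2 messages.

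Among the transcription factors of the mitochondrial genome, TFB2M was higher in every knockdown library, without passing the test. TFB2M (chr1:246540560-246566324, minus strand), which melts the promoter for POLRMT, had 574, 601 and 531 normalized counts in shControl and 656, 634 and 703 in shRNF25. Its log2 fold change was 0.22 (SE 0.112, 95% interval -0.03 to 0.48, limma adjusted p = 0.185). TFAM (chr10:58385022-58399221, plus strand), which packages mitochondrial DNA and bends the promoters, had 1872, 1809 and 1294 normalized counts in shControl and 1791, 1919 and 1979.8 in shRNF25. shControl replicate 3 was the low library and the groups overlapped, and the log2 fold change was 0.21 (SE 0.148, 95% interval -0.12 to 0.55, limma adjusted p = 0.341). Without shControl replicate 3 it was 0.04 (limma adjusted p = 0.789).

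POLRMT (chr19:617224-633604, minus strand) had 1742, 2763 and 2424 normalized counts in shControl and 1721, 1865 and 1982 in shRNF25. The knockdown libraries lay near shControl replicate 1 and below the other controls. The log2 fold change was -0.29 (SE 0.164, 95% interval -0.66 to 0.08, limma adjusted p = 0.237), while it was -0.48 (adjusted p = 0.00313) without shControl replicate 1 and -0.15 (adjusted p = 0.537) without shControl replicate 2. The call on POLRMT thus turned on this library, which was also the one with the large mitochondrial share. Of the 50-base words of POLRMT transcripts, 31.0% occur in transcripts of other genes, mostly in the pseudogene POLRMTP1 (29.2%), which itself had 1 to 5 reads in a library.

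TEFM (chr17:30897336-30906820, minus strand) was the gene with the fewest reads, 84 to 112 in a library. Its normalized counts were 92.9, 105 and 101 in shControl and 102, 103 and 104 in shRNF25. These values lay close together, with a log2 fold change of 0.05 (SE 0.149, 95% interval -0.29 to 0.38, limma adjusted p = 0.853) whose sign was negative under quantile normalization and without shControl replicate 1. At 84 reads counting alone gives a coefficient of variation of 10.9%, and antisense exons of AC130324.3 and ADAP2 cover 16.8% and 9.34% of its exon bases.

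FASTKD2 (chr2:206765357-206792509, plus strand) had 1292, 1111 and 867 normalized counts in shControl and 932, 941 and 975 in shRNF25. The knockdown libraries were tightly grouped within the span of the controls, with a log2 fold change of -0.18 (SE 0.147, 95% interval -0.51 to 0.15, limma adjusted p = 0.417). Without shControl replicate 1 it was -0.05 and without shControl replicate 3 it was -0.34 (limma adjusted p = 0.755 and 0.0669). Over the 10 genes, the interval excluded a 1.5-fold change in either direction for 7, and it reached a 1.5-fold lower level for SLIRP, PNPT1 and POLRMT. A change smaller than 1.5-fold was therefore not excluded for any gene that missed the threshold.

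**Figure D3:**
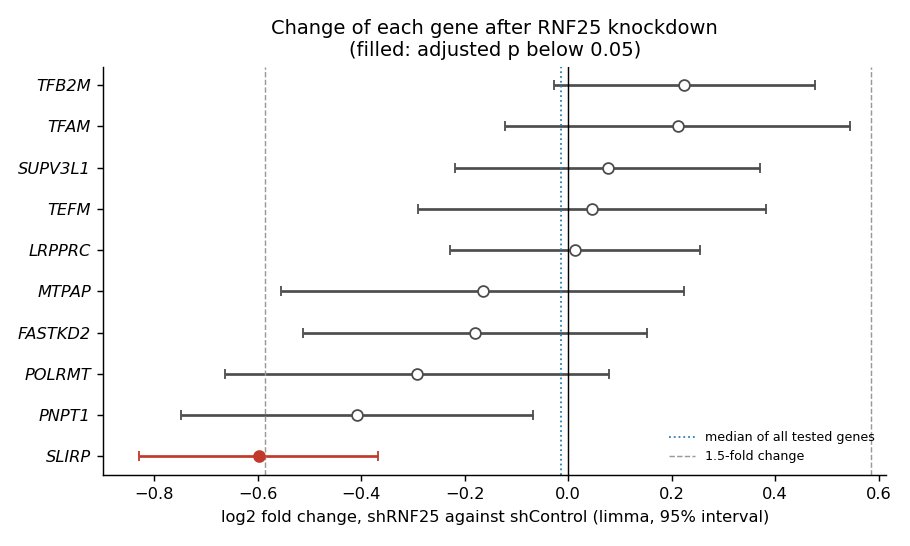
Log2 fold change of each gene, shRNF25 against shControl, from limma on log2(normalized count + 1), with its 95% interval (n = 3 per group). The dotted line marks the median of all tested genes (-0.01) and the dashed lines a 1.5-fold change, and SLIRP, at -0.60, is the filled point that passed an adjusted p of 0.05.

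Levels between genes were compared as normalized counts per kb of transcript in shControl. With the longest coding transcript as the length, SLIRP was highest at 1633 ± 109 per kb (SD, n = 3), and its lowest control (1521 per kb) was above the highest control of POLRMT (720.5 per kb). POLRMT (602), SUPV3L1 (590.4) and LRPPRC (582) followed at levels per kb whose ranges overlapped, then PNPT1 (421) and FASTKD2 (342), TFB2M (308) and TFAM (306), with overlap between neighbours. MTPAP (69.6 per kb) and TEFM (47.3 per kb) were lowest and separated from each other and from the rest. With the union of all annotated exons as the length, SLIRP, MTPAP and TEFM kept their places in the order of levels per kb, but SLIRP (537) no longer separated from POLRMT (451). The order among the genes between them depended on the length used. The level of SLIRP per kb in shRNF25 was 1077 ± 4.88 (SD, n = 3, longest coding transcript).

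The SLIRP gene starts head to head with ALKBH1, a dioxygenase that modifies tRNAs, mitochondrial ones included, and 50 bases lie between their annotated starts. That stretch is shown because both genes were lower in shRNF25, next to the 150 bases upstream of the LRPPRC start, whose gene did not pass the test. Both are RefSeq sequence of GRCh38.p14, read 5′ to 3′ on the strand of the named gene: chr14:77708021-77708070 on the plus strand for SLIRP and chr2:43996006-43996155 on the minus strand for LRPPRC. Capitals mark an ETS core (CCGGAAG), which begins 44 bases before the SLIRP start, and a YY1 core (AAGATGG, here on the other strand), which begins 89 bases before the LRPPRC start.
SLIRP: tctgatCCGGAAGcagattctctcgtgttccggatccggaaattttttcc
LRPPRC: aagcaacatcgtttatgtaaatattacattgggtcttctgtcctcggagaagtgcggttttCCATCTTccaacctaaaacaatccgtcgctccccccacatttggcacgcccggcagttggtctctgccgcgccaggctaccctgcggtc

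In the 250 bases before the RefSeq start, searched on both strands without regard to overlap between motifs, the ETS core CCGGAAG was found in 2 of the 10 genes (POLRMT and SLIRP) and in 8.79% of 27305 promoters. The YY1 core AAGATGG was found in 2 (LRPPRC and SLIRP) and in 3.74% of promoters. For SLIRP this match lies outside the 50 bases shown above, since the 250-base window is longer than that stretch. The NRF1 core GCATGCG was found in 3 (MTPAP, POLRMT and TFB2M) and in 3.498% of promoters, and the SP1 motif GGGCGG in 4 (PNPT1, POLRMT, TFAM and TFB2M) and in 41.6%. These are matches of letters in a window and no evidence of binding. Whether any of these motifs bears on the changes in RNA was not tested.

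ALKBH1 had 515, 534 and 533 normalized counts in shControl and 409, 414 and 415 in shRNF25. All knockdown libraries were lower than all controls, with a log2 fold change of -0.35 (SE 0.107, limma adjusted p = 0.0442), a call that held in 5 of 16 alternatives. SNW1, a splicing and transcription cofactor on the opposite strand whose exons cover 118 bases of SLIRP exons (4.49%), was looked at after its values had been seen. SNW1 had 2100.3, 1722 and 1778 normalized counts in shControl and 1469.7, 1468 and 1512 in shRNF25, with a log2 fold change of -0.33 (SE 0.110, limma adjusted p = 0.0653). SLIRP, ALKBH1 and SNW1 thus all had lower values in every knockdown library, and 2 of the 3 passed the test. Of all tested genes, 21.8% had lower values in every knockdown library and 10.8% were called lower (limma). Other genes of the region, among them TMED8 and VIPAS39, were also lower in every knockdown library, so this was not particular to the 3 genes. The kit keeps the strand of the RNA, but the strand setting of the read counting was not given in the sources used here, so reads in the shared bases cannot be divided between SLIRP and SNW1. C14orf178 overlaps 275 exon bases of SLIRP on the same strand (10.4%).

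Within 1000 kb of the SLIRP start, 20 other genes were tested, with a median log2 fold change of -0.14. Of these, 4 were lower and 2 higher at an adjusted p below 0.05 (limma), beside 10.8% and 10.5% of all tested genes. Beyond ALKBH1 the lower genes were TMED8 (-0.42, adjusted p = 0.0172), VIPAS39 (-0.51, adjusted p = 0.0262) and LINC01629 (-2.83, adjusted p = 0.00127). The higher genes were VASH1 (1.61, adjusted p = 0.00103) and NRXN3 (1.97, adjusted p = 0.000783). The 550 tested genes of chromosome 14 had a median log2 fold change of -0.01. Genes near SLIRP were thus called in both directions, and the cause was not tested. The window was chosen after the SLIRP result was known, and the values are a description.

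**Figure D4:**
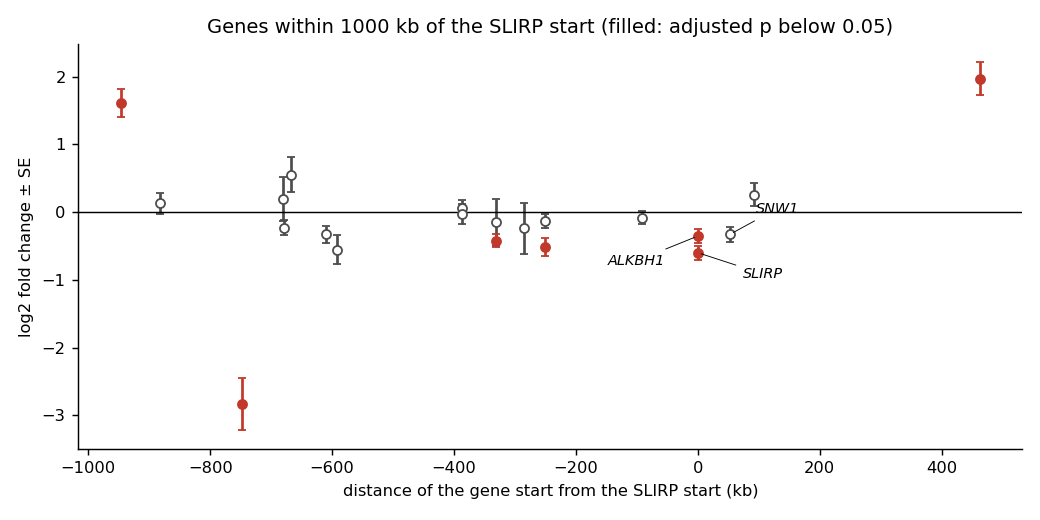
Log2 fold change (shRNF25 against shControl, limma, bars give ± SE) of SLIRP and the 20 other tested genes whose start lies within 1000 kb, by distance of their start from the SLIRP start in kb. SLIRP and ALKBH1 at distance 0 are both filled (adjusted p below 0.05), SNW1 is open, and the other filled points lie on both sides of 0.

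The RNAs that the 10 genes act on, the mitochondrially encoded mRNAs, took 10.6%, 3.05% and 3.57% of reads in shControl and 3.12%, 3.92% and 3.21% in shRNF25. Apart from shControl replicate 1 the libraries overlapped. The mean share was 5.74% ± 4.22 and 3.42% ± 0.436 (SD, n = 3), a difference of -2.32 percentage points (two-sided exact permutation p = 0.7), which was 0.108 percentage points in the other direction without shControl replicate 1. Of the 13 mRNAs, 0 passed the test (limma), 1 had an unadjusted p below 0.05, and edgeR and DESeq2 called 0. Their median log2 fold change was -0.71 with all libraries and -0.05 without shControl replicate 1.

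That gene was MT-CO2, a subunit of cytochrome c oxidase, whose normalized counts were 295512, 73529 and 87125 in shControl and 53734, 75433 and 57202 in shRNF25. The controls ran from 73529 upwards, so the groups overlapped, and the log2 fold change was -1.01 (limma adjusted p = 0.137) and -0.38 (adjusted p = 0.106) without shControl replicate 1. MT-CO2 passed with library weights by group (limma adjusted p = 0.0412), and under quantile normalization its log2 fold change was -0.21 (adjusted p = 0.337). MT-ND6, a complex I subunit and the sole mRNA encoded on the other strand of the mitochondrial genome, had 1569, 629 and 343 normalized counts in shControl and 462, 626 and 327 in shRNF25. Its groups overlapped too, with a log2 fold change of -0.61 (limma adjusted p = 0.383) and of -0.03 without shControl replicate 1. For the rRNAs, MT-RNR1 had a log2 fold change of -0.78 (limma adjusted p = 0.0393, below 0.05 in 10 of 16 alternatives) and MT-RNR2 one of -1.05 (adjusted p = 0.0688). Without shControl replicate 1 they were -0.51 (adjusted p = 0.0198) and -0.54 (adjusted p = 0.0133). Ribosomal RNA was removed during library preparation, so these levels also depend on how much was removed, which was not tested.

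The level of the nuclear genes in shControl replicate 1 differed from the mean of the other controls by gene. PNPT1 was 1.39 times, MTPAP 1.36 times, FASTKD2 1.31 times, SUPV3L1 1.29 times, TFAM 1.21 times and LRPPRC 1.19 times that mean, TFB2M was 1.01 times, SLIRP and TEFM were each 0.90 times and POLRMT was 0.672 times. This library was the highest control for 6 of the 10 genes and the lowest for 3. For POLRMT it was the low control and for PNPT1 the high one, and it was the library with the large mitochondrial share.

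The genes whose log2 values over the 6 libraries were most like those of LRPPRC, among 11329 genes with a mean of at least 100, were NSF (Pearson r = 0.999), UPF2 (0.996), ZNF106 (0.995), ARIH1 (0.994) and HCFC2 (0.994). NSF, a vesicle fusion ATPase, had normalized counts of 1696, 1337 and 1337 in shControl and 1449.7, 1446 and 1501 in shRNF25. The pattern that these genes share is a high shControl replicate 1, 2 lower controls and knockdown libraries in between. Among the other 9 genes, r with LRPPRC ran from 0.805 (SUPV3L1) to -0.807 (TEFM), and it was -0.240 for SLIRP and -0.759 for POLRMT. The 6 points are the same libraries for every gene, and 1 library sets much of the range, so these values are a description.

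Other genes of mitochondrial gene expression were read from lists. The 8 lists of nuclear genes held 149 genes, of which 147 were tested, 12 were lower (8.16%) and 3 were higher (2.04%), beside 10.8% and 10.5% of all genes, with a median log2 fold change of -0.05. These counts moved with the libraries used. The shares of all tested genes in the same fits were not set beside them, so the counts show no trait of these lists. The lower genes numbered 22 without shControl replicate 1, 20 without shControl replicate 3, 6 without shControl replicate 2, 1 without shRNF25 replicate 1 and 2 without shRNF25 replicate 2 or 3. The higher genes numbered 7 without shControl replicate 1, 1 without shControl replicate 2, 2 without shControl replicate 3 and 0 without any 1 of the shRNF25 replicates.

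Among the 12 other genes of mitochondrial DNA transcription and replication, 1 was lower and 0 were higher, with a median of 0.00. The lower gene was MTERF1, a transcription termination factor, with 244, 221 and 199 normalized counts in shControl and 145, 164 and 141 in shRNF25. Its groups did not overlap, and the log2 fold change was -0.55 (SE 0.145, limma adjusted p = 0.0256). Among 19 RNA processing and modification genes, ALKBH1 was lower and MRM1, which methylates the large ribosomal RNA, was higher, with 132, 165 and 173 normalized counts in shControl and 214, 229 and 237 in shRNF25 (log2 fold change 0.54, limma adjusted p = 0.0326). Of 11 RNA granule and decay genes, ANGEL2 alone passed, at 375, 326 and 317 against 458, 491 and 464 (log2 fold change 0.48, limma adjusted p = 0.0227). These 3 calls held in 12 (MTERF1), 10 (MRM1) and 11 (ANGEL2) of 16 alternatives.

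None of 5 FASTK relatives of FASTKD2 passed the test (limma), 0 had an unadjusted p below 0.05, and edgeR and DESeq2 called 0. TBRG4 (log2 fold change -0.16, adjusted p = 0.352) and FASTK (0.18, adjusted p = 0.359) had the smallest p-values. Of 5 other pentatricopeptide repeat genes, the family of LRPPRC, 0 passed (limma), 1 had an unadjusted p below 0.05, and edgeR and DESeq2 called 0. That gene was PTCD3, a mitochondrial translation factor, with 1533, 1417 and 1333 normalized counts in shControl and 1749, 1653 and 1765 in shRNF25 (log2 fold change 0.27, limma adjusted p = 0.0916). It was higher in every knockdown library, whereas PTCD2 (0.16, adjusted p = 0.455) overlapped.

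The upstream regulators counted 9 tested genes of 10, since PPARGC1A was not in the table, with 2 lower, 0 higher and a median of -0.17. CREB1, a cyclic AMP-responsive transcription factor, had 1267, 958 and 901 normalized counts in shControl and 734, 720.3 and 701 in shRNF25 (log2 fold change -0.52, limma adjusted p = 0.0288). GABPB1, a subunit of the ETS-family factor GABP, had 439, 343 and 348 in shControl and 241, 281 and 266 in shRNF25 (log2 fold change -0.51, limma adjusted p = 0.0328). In both genes all knockdown libraries were below all controls. Their calls held in 13 and 12 of 16 alternatives.

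Of 12 markers of mitochondrial content, VDAC1, the outer membrane channel, and CS, citrate synthase, were lower and 0 were higher, with a median of -0.16. VDAC1 had 6418, 6392 and 5898 normalized counts in shControl and 4406, 4677 and 4789.8 in shRNF25 (log2 fold change -0.43, limma adjusted p = 0.0142). CS had 8404, 7423 and 6689 in shControl and 5381, 5699 and 5821 in shRNF25 (log2 fold change -0.41, limma adjusted p = 0.0320). Both were lower in every knockdown library, and 10 other markers did not pass. The call on VDAC1 held in 12 and that on CS in 9 of 16 alternatives, and under quantile normalization CS had a log2 fold change of -0.23 (limma adjusted p = 0.166).

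The 76 tested genes of 77 mitochondrial ribosomal proteins held 6 lower genes and 1 higher, with a median of -0.06. MRPS24 had the largest change, from 81.8, 101 and 114 normalized counts in shControl to 51.9, 41.6 and 43.8 in shRNF25 (log2 fold change -1.09, limma adjusted p = 0.00488, below 0.05 in all 16 alternatives). MRPS18A fell by 0.63 (adjusted p = 0.0101), MRPL2 by 0.59 (adjusted p = 0.0181) and MRPL4 by 0.44 (adjusted p = 0.0232) on the log2 scale (limma), calls that held in 15, 12 and 11 of 16 alternatives. The other 69 genes did not pass, and the list median lay near that of all genes.

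**Figure D5:**
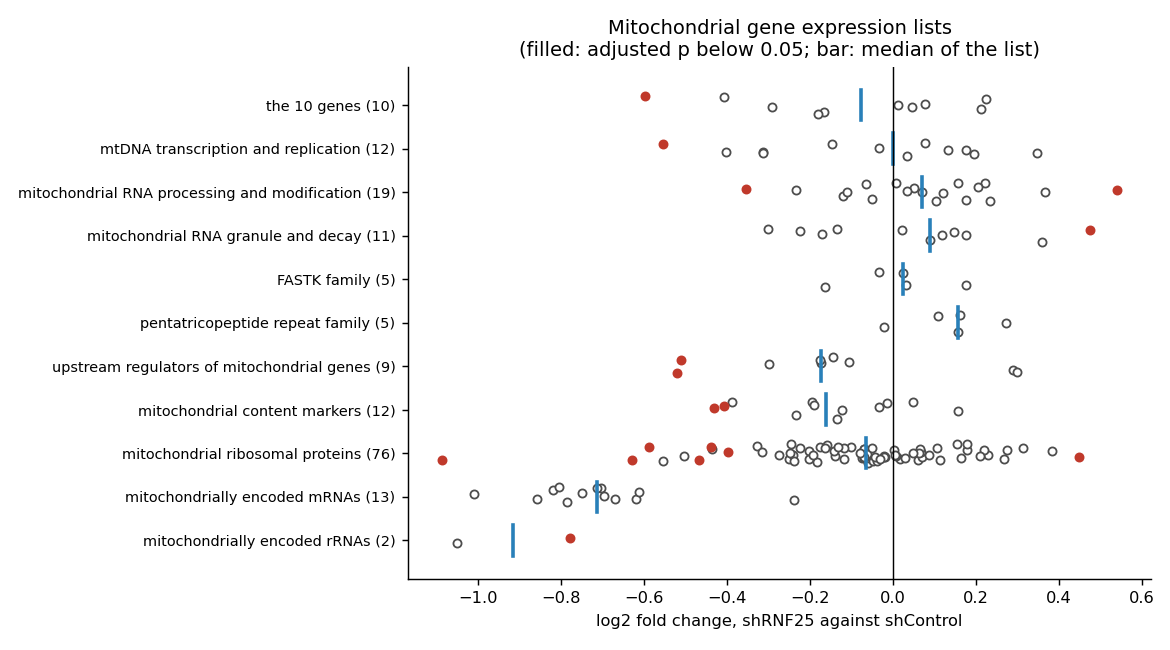
Log2 fold change (shRNF25 against shControl, limma) of every tested gene in 11 groups, with the number of tested genes in brackets, filled points for an adjusted p below 0.05 and a bar at the median. The medians of the nuclear lists lie between -0.17 and 0.16, whereas the mitochondrially encoded mRNAs sit at a median of -0.71 with all libraries and of -0.05 without shControl replicate 1.

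TRIP4, a transcriptional coactivator that the study examined with LRPPRC, had 369, 329 and 403 normalized counts in shControl and 349.9, 384 and 311 in shRNF25. Its groups overlapped, with a log2 fold change of -0.08 (SE 0.137, 95% interval -0.38 to 0.23, limma adjusted p = 0.730). At the level of RNA the knockdown libraries of LRPPRC and TRIP4 thus overlapped the controls, while RNF25 itself was lower in every knockdown library. According to the study, mass spectrometry pointed to both proteins as partners of RNF25 and p65, and RNF25 ubiquitinated TRIP4 but not LRPPRC. It also reported that LRPPRC knockdown, unlike TRIP4 knockdown, did not raise p65 phosphorylation. The RNA levels given here do not test those protein results.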

How the data were processed

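Total RNA was sequenced from 3 shRNF25 and 3 shControl samples of SW839 cells. The authors deposited 1 table of normalized counts, a signal in which read counts had been divided by 1 scaling factor per library. According to the submitters' processing notes, fastp, HISAT2, HTSeq and GRCh38 were used, with versions, annotation and strand setting not given in the sources used here. The study's methods name a stranded ribosomal RNA depletion kit and DESeq2. Multiplying back by that factor returned whole reads for 100% of values (within 0.01 reads).

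Values were transformed as log2(normalized count + 1), which understates changes of low genes. Genes with at least 10 in at least 3 libraries were fitted with limma 3.58.1 (trend, R 4.3.3), with the group as the only term and Benjamini-Hochberg adjustment over all tested genes. Single values were compared with two-sided exact permutation tests. edgeR 4.0.16 and DESeq2 1.42.0 on the recovered reads, other pseudocounts (5 and 0.5), filters, scalings, library weights, a replicate block and each library left out in turn were alternatives. The fits were tested on simulated data. Positions come from GENCODE 29 (GRCh38), and all 10 symbols matched both GENCODE and the RefSeq promoters. Named list genes are the up to 4 with the smallest adjusted p below 0.05, or the 2 with the smallest p where none passed. The 10 genes and the lists were chosen with earlier results of these data known. Intervals on counts cover counting error only. Column labels gave each library's group.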

Additional observations from a re-analysis of the deposited data

How the results depend on the processing

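SLIRP kept its direction and its call in all 16 alternatives, and RNF25 did too. Over the 10 genes, 2 were lower with library weights by group, and leaving out 1 library gave 1 to 2. The study's criteria were met by 0 genes under quantile normalization, under rescaling on genes with a mean of at least 100 and with edgeR, and by 0 to 1 when 1 library was left out. The LRPPRC log2 fold change ran from -0.0295 (without shControl replicate 2) to 0.0966 when libraries were left out, and was negative without shControl replicate 3 (-0.0271) and shRNF25 replicate 3 (-0.00135) as well. TEFM was -0.0229 under quantile normalization and ran from -0.00312 (without shControl replicate 1) to 0.0823, SUPV3L1 from -0.00926 (without shControl replicate 3) to 0.198 and TRIP4 from -0.152 to 0.00321 (without shRNF25 replicate 3). In the 8 nuclear lists, 6 genes were lower and 5 higher under quantile normalization, 5 were higher under rescaling on genes with a mean of at least 100 and 1 without a filter, and leaving out libraries gave 1 to 22 lower and 0 to 7 higher. The mitochondrial share differed by -3.67 to 0.108 percentage points when libraries were left out. The shares of all genes under the same settings were not set beside the gene counts above. The cause of these shifts was not tested. Same-numbered samples did not deviate together (r = -0.0638, -0.0874 and 0.0471). With 3 libraries per group these values cannot show whether same-numbered samples were prepared together. With the replicate block, LRPPRC had a log2 fold change of 0.01 (limma adjusted p = 0.958) and SLIRP of -0.60 (adjusted p = 0.0102), and 0 genes of the lists were higher. With 3 libraries per group no exact test of a single value can pass 0.1. The intervals of the genes that missed the threshold were wide enough to hold changes below 1.5-fold. Those of PNPT1 and POLRMT also reached beyond a 1.5-fold lower level.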
